A study of Mus musculus with 8 samples.

Results

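Chemokine ligands are small secreted proteins that steer migrating cells. They were followed here through the choroid plexus of mouse embryos. The set held every gene of the deposited count table whose symbol was Ccl or Cxcl plus a number, together with Cx3cl1 and Xcl1, which gave 39 of 23284 genes. Of these, 24 were CC ligands (Ccl), 13 were CXC ligands (Cxcl) and 2 were the CX3C ligand Cx3cl1 and the C ligand Xcl1. The choice used symbols alone and no measured value. Enough reads for testing were present for 21 of the 39 (13 Ccl, 7 Cxcl and Cx3cl1), out of 15698 genes tested in all.

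A chemokine binds a G protein-coupled receptor on a leukocyte or other cell and gives its movement a direction. Some chemokines are homeostatic: Cxcl12 acts on Cxcr4 and keeps progenitors and vessels in place, and Cx3cl1, a membrane-tethered ligand shed by proteases, acts on Cx3cr1 of macrophages and microglia. Others are inflammatory, kept low in resting tissue and induced within hours by NF-kB, AP-1 or interferon signalling: Cxcl1, Cxcl2 and Cxcl3 attract neutrophils through Cxcr2, Ccl2 and Ccl7 attract monocytes through Ccr2, and Cxcl10 attracts T cells through Cxcr3. The choroid plexus makes the cerebrospinal fluid and is a route by which immune cells enter it.

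RNA-seq libraries were made from choroid plexus of CD1 mouse embryos at E18.5, in a design that crossed region with preparation. Telencephalic tissue came from the lateral ventricles and hindbrain tissue from the fourth ventricle. Each was taken either whole (strain given as CD1) or as epithelial cells purified by fluorescence-activated cell sorting (strain given as ICR (CD1)). The sorted cells were Ttr::RFP+, that is, they carried a red fluorescent reporter of Ttr, the gene for transthyretin. No gene was deleted and no agent was given in any group, per the labels. There were 2 biological replicates in each of the 4 groups (n = 2). Within a preparation, both regions of a replicate number came from the same brains, whereas whole and sorted libraries came from different brains. Whether embryos were pooled is not given in the sources used here.

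Total counts ran from 8849053 to 31613434 per library, and replicates differed by more than sampling noise, with a chi-square per degree of freedom of 5.18 (telencephalic whole), 12.8 (hindbrain whole), 16.2 (telencephalic sorted) and 63.8 (hindbrain sorted). The summed level of 16 choroid epithelial markers was 157980 to 201280 CPM (read counts relative to the scaled library size) in whole libraries and 178170 to 298670 in sorted ones. The 14 endothelial markers summed to 772.2 to 836.18 CPM in whole libraries and to 131.67 to 202.54 in sorted ones. The 14 macrophage markers summed to 163.11 to 206.44 CPM in whole libraries, 38.5 and 70.2 in telencephalic sorted cells, and 219.34 and 192.87 in hindbrain sorted cells. The 15 mesenchymal markers summed to 1336.6 to 2230.2 CPM in whole libraries. They stood at 950.67 and 982.37 in telencephalic and 2155.7 and 1643.4 in hindbrain sorted cells. For 12 mural markers these sums were 449.24 to 545.15, 99.0 and 88.2, and 336 and 302 CPM. Sorted replicate 2 stood apart from sorted replicate 1 in both regions for the inflammatory ligands, so results that rest on it are given with and without it. Differences between groups are on the log2 scale, each with its standard error (±). A gene is said to be called when edgeR's quasi-likelihood test gave a Benjamini-Hochberg adjusted p below 0.05 over all genes tested.

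The promoters of 5 ligands are shown because 4 of these genes (Cxcl1, Cxcl2, Cxcl10 and Ccl3) were called higher after sorting in both regions and Cxcl3 is a close relative of Cxcl1 and Cxcl2, and because 4 of the 5 carry textbook motifs of induced chemokine genes. Each line gives the 250 bases before the RefSeq start of the gene on its own strand, 5′ to 3′ (RefSeq table, GRCm38.p6). Capitals mark matches to the NF-kB site (kB), to the interferon-stimulated response element (ISRE, GAAA then any 2 bases then GAAA) and to the AP-1 site (TGANTCA). Both strands were searched and overlapping matches were counted.
Cxcl1 (chr5:90890995-90891244, plus strand): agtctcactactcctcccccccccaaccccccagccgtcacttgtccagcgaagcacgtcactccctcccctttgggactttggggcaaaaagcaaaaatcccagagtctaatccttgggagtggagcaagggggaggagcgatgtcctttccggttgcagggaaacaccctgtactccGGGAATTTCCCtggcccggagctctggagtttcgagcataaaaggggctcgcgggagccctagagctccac
Cxcl2 (chr5:90903649-90903898, plus strand): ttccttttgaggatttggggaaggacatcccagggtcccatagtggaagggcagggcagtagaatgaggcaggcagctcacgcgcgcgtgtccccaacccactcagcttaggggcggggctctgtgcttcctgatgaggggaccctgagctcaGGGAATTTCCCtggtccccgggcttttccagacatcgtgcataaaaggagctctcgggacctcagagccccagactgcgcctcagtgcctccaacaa
Cxcl3 (chr5:90785851-90786100, plus strand): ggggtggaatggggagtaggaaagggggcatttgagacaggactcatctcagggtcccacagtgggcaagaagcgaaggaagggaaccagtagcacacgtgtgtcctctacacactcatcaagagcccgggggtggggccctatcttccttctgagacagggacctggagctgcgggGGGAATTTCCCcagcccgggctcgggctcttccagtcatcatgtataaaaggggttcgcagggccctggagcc
Cxcl10 (chr5:92348890-92349139, minus strand): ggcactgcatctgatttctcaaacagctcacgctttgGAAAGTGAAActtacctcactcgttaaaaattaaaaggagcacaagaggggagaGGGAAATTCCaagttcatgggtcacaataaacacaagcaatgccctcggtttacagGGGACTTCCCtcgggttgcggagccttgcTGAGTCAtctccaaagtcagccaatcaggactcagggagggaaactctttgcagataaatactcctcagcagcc
Ccl3 (chr11:83649379-83649628, minus strand): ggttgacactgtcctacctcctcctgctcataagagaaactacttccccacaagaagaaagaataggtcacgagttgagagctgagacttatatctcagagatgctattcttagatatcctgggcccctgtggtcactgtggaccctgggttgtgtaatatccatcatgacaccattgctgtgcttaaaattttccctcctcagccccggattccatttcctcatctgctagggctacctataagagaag
The 3 neutrophil attractants Cxcl1, Cxcl2 and Cxcl3 share the run GGGAATTTCCC, in which 2 kB matches overlap, at 71, 97 and 73 bases before their starts. Cxcl10 holds 2 kB matches (GGGAAATTCC and GGGACTTCCC), 1 ISRE (GAAAGTGAAA) and 1 AP-1 site (TGAGTCA). Ccl3 holds none of the 3 motifs in this window, nor do Cxcl12 and Cx3cl1. Among the 15 tested ligands with an entry in the table, 5 have a kB match (these 4 and Ccl9), 1 an ISRE and 3 an AP-1 site. Among the 12 untested ligands with an entry, 1 has a kB match, 2 an ISRE and 1 an AP-1 site. The tested ligands Ccl2, Ccl4, Ccl5, Ccl7, Ccl24 and Cxcl16 have no entry. A ligand with several entries is counted when any of them holds a match, whereas the shares over all promoters count each entry. Over 32851 promoters of the same length, a kB match is present in 3.9%, an ISRE in 2.98% and an AP-1 site in 6.75%. A match describes the letters only.

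In whole choroid plexus the chemokine ligands were few and steady. The summed level of all 39 was 113.7 and 110.3 CPM in telencephalic tissue and 116.5 and 117.1 CPM in hindbrain tissue, so these 4 libraries lay close together. Cx3cl1 alone made up 46.2% to 50.3% of that sum, and Cx3cl1 with Cxcl12 69.1% to 77.5%. The sorted libraries held 130.2 and 209.7 CPM in the telencephalic group, and 196.5 and 446.6 CPM in the hindbrain group. The order of telencephalic sorted replicate 1 turned with the scale: by library totals, without TMM factors, it held 108.9 CPM, below the 118.9 to 131.8 of the 4 whole libraries, whereas the other 3 sorted libraries held 182.1 to 416.4. In those 3 the excess over whole tissue of the same region lay mostly in 7 inflammatory ligands (Cxcl1, Cxcl2, Cxcl10, Ccl2, Ccl3, Ccl4 and Ccl7), which stood 75.5 to 310.0 CPM above the whole mean. These 7 were chosen because they were called higher after sorting in both regions (Cx3cl1 left out). Their low level in whole tissue and their excess after sorting are therefore built into the choice. In telencephalic sorted replicate 1 they stood 12.4 CPM above it, and Cx3cl1 25.8 CPM. None of the 7 was above 2 CPM in any whole library, where together they made up 0.0951% to 1.98% of the sum. In sorted cells they made up 9.79% and 49.4% (telencephalic replicates 1 and 2) and 39.6% and 69.8% (hindbrain). In libraries from whole tissue or sorted populations, fewer cells of a type and less RNA per cell cannot be told apart.

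**Figure D1:**
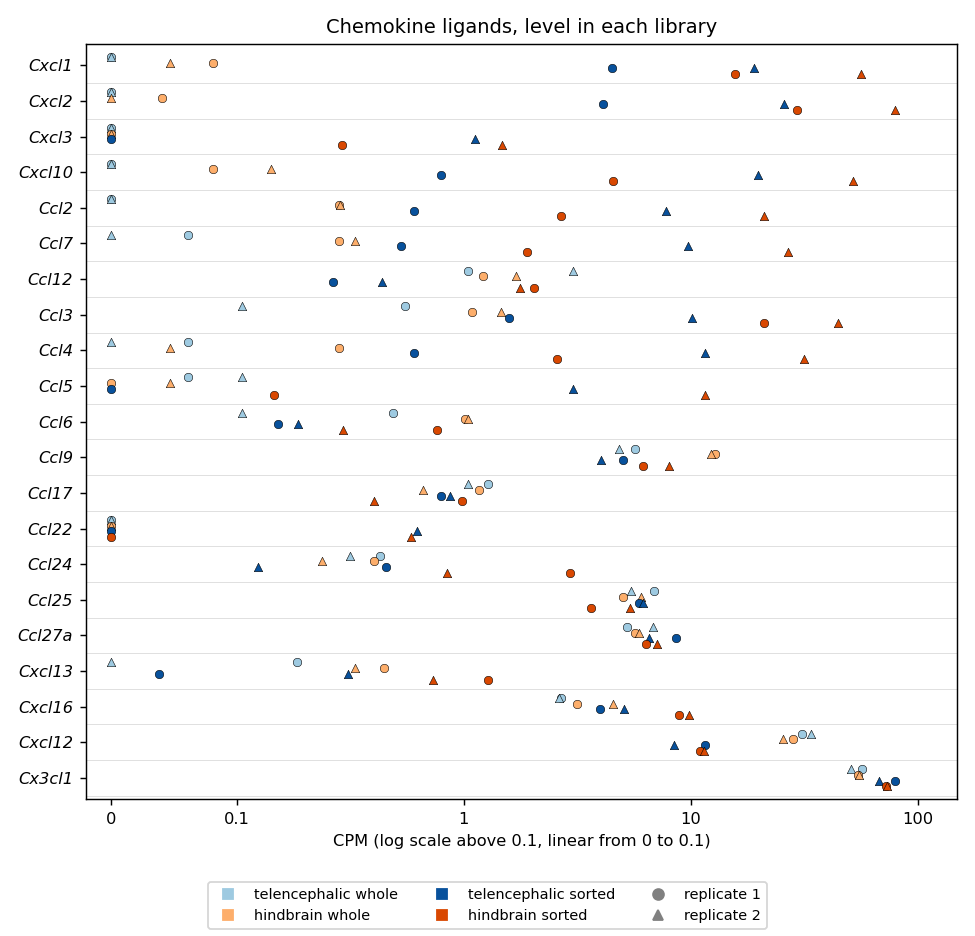
Level of the 21 tested chemokine ligands in each library, in CPM on an axis that is logarithmic above 0.1 and linear below it. Colours mark the 4 groups, circles replicate 1 and triangles replicate 2. Cx3cl1 and Cxcl12 form tight clusters at the bottom, whereas the upper rows run from 0 in whole tissue to 79.5 CPM (Cxcl2, hindbrain sorted replicate 2).

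The first comparison set sorted epithelial cells against whole tissue of the same region. In telencephalic tissue 8 of 21 ligands were higher after sorting and 2 lower, against a background of 9.88% of all genes called higher and 12.5% lower. In hindbrain tissue 11 were higher and 2 lower, against 10.2% and 11.9% of all genes. The median log2 difference of the 21 ligands was 0.76 and 2.53 (2.16 with genes at 0 whole-tissue counts set to their lower bound). That of all genes tested was 0.01 in each region. Cxcl1, Cxcl2, Cxcl3, Cxcl10, Ccl2, Ccl4, Ccl5, Ccl7 and Ccl22 had fewer than 10 counts in every whole library. They passed the low-count filter through sorted libraries alone, so their excess after sorting is built into their place among the 21. The ligand shares and medians carry this. Cxcl1, Cxcl2, Cxcl10, Ccl2, Ccl3, Ccl4, Ccl7 and Cx3cl1 were higher in both regions, Ccl5, Ccl24 and Cxcl16 were called higher in the hindbrain comparison, and Cxcl12 was lower in both. None of these differences was called as different between the regions by the interaction test given further on. Scaling by library totals in place of TMM factors moved the median of all genes to -0.30 (telencephalic) and -0.19 (hindbrain).

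The neutrophil attractants Cxcl1 and Cxcl2 went from nearly no reads to 4 CPM or more. Cxcl1 had 0 counts in both telencephalic whole libraries, 0.0806 and 0.0472 CPM in hindbrain whole tissue, 4.50 and 19.0 CPM in telencephalic sorted cells and 15.7 and 56.2 CPM in hindbrain sorted cells. Cxcl2 was at 0 in 3 of the 4 whole libraries and at 0.0403 CPM in the remaining one (hindbrain replicate 1), against 4.12 and 25.7 CPM (telencephalic sorted) and 29.4 and 79.5 CPM (hindbrain sorted). All 4 sorted libraries therefore lay above all 4 whole libraries for both genes. In telencephalic tissue Cxcl1 was at least 86.2-fold and Cxcl2 at least 106-fold higher after sorting, taking 3 counts over the group as the floor (adjusted p = 0.00205 and 0.00256). In hindbrain tissue the ratio was 550 for Cxcl1 (95% counting interval 188 to 2670) and 2500 for Cxcl2 (448 to 98700), with adjusted p = 0.000198 and 0.000186. Cxcl3, their neighbour and close relative, had 0 counts in all whole libraries and in telencephalic sorted replicate 1. It stood at 1.12 CPM in telencephalic sorted replicate 2 and at 0.291 and 1.47 CPM in hindbrain sorted cells, and was not called (adjusted p = 0.168 and 0.0543). Cxcl5, another Cxcr2 ligand of this cluster on chromosome 5, had at most 5 counts in any library.

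The monocyte attractants Ccl2 and Ccl7, neighbours on chromosome 11 that act on Ccr2, followed the same order of groups. Ccl2 had 0 counts in both telencephalic whole libraries and 0.282 and 0.283 CPM in the hindbrain ones. In sorted cells it reached 0.605 and 7.81 CPM (telencephalic) and 2.69 and 21.1 CPM (hindbrain), so the sorted and whole groups did not overlap. It was at least 28.8-fold higher after sorting in telencephalic tissue (adjusted p = 0.0298) and higher by 5.37 ± 1.23 in hindbrain tissue (adjusted p = 0.0101). Ccl7 stood at 0.0612 and 0 CPM in telencephalic and 0.282 and 0.330 CPM in hindbrain whole tissue, against 0.529 and 9.74 CPM and 1.89 and 27.0 CPM in the sorted cells of these regions. Its differences were called as well, with a telencephalic ratio of 104 (95% counting interval 18.4 to 4130, adjusted p = 0.0456) and a hindbrain change of 5.54 ± 1.37 (adjusted p = 0.0129).

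Ccl12, a further Ccr2 ligand of the mouse in the same cluster, went the other way in telencephalic tissue. It stood at 1.04 and 3.04 CPM in whole tissue and 0.265 and 0.434 CPM after sorting, a change of -2.52 ± 0.64 (adjusted p = 0.0141). In hindbrain tissue the values were 1.21 and 1.70 CPM whole and 2.04 and 1.76 CPM sorted, a difference of 0.39 ± 0.52 that was not called (adjusted p = 0.636). Without telencephalic whole replicate 2 the telencephalic change was -1.60 (adjusted p = 0.179), and without telencephalic sorted replicate 1 it was -2.16 (adjusted p = 0.116). Ccl8 and Ccl11, also of this cluster, had counts in 1 and 2 libraries, with 8 counts for Ccl8 in hindbrain sorted replicate 2 and at most 11 for Ccl11. The macrophage markers moved with Ccl12: in telencephalic tissue 11 of 14 were lower after sorting and 0 higher, whereas in hindbrain tissue 1 was higher (Cd14) and 1 lower (C1qb). Their part in the Ccl12 values was not tested.

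Ccl3, Ccl4 and Ccl5, which draw macrophages and T cells, were high after sorting to different degrees. Ccl3 had reads in each whole library, at 0.550 and 0.105 CPM (telencephalic, the latter 1 count) and 1.09 and 1.46 CPM (hindbrain). After sorting it stood at 1.59 and 10.2 CPM and at 21.0 and 44.5 CPM, a difference of 3.86 ± 0.96 in telencephalic (adjusted p = 0.0128) and 4.68 ± 0.68 in hindbrain tissue (adjusted p = 0.000522). Each sorted library was above each whole library. Ccl4, its neighbour, rose from 0.0612 and 0 CPM to 0.605 and 11.5 CPM in telencephalic tissue, a ratio of 123 (95% counting interval 21.8 to 4880, adjusted p = 0.0414). In hindbrain tissue it rose from 0.282 and 0.0472 CPM to 2.58 and 31.7 CPM, by 6.59 ± 1.50 (adjusted p = 0.00856). Ccl5 was carried by the second sorted replicates. It had 0 CPM in telencephalic sorted replicate 1 and 0.145 CPM in hindbrain sorted replicate 1, against 3.04 and 11.6 CPM in replicates 2, and at most 0.105 CPM in whole tissue. It was called in hindbrain tissue, with a ratio of 269 (95% counting interval 47.9 to 10600, adjusted p = 0.0292), and not in telencephalic tissue (14.9, 3.91 to 127, adjusted p = 0.253). The hindbrain call was lost without hindbrain sorted replicate 2 (adjusted p = 0.556), without hindbrain whole replicate 1 (0.135) or 2 (0.11), without telencephalic whole replicate 1 (0.0511) or 2 (0.0518), and with DESeq2 (0.0538).

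Of the interferon-induced ligands of Cxcr3, Cxcl10 reached high levels and Cxcl9 and Cxcl11 stayed under the count filter. Cxcl10 had 0 counts in telencephalic and 0.0806 and 0.142 CPM in hindbrain whole tissue. It stood at 0.794 and 19.7 CPM in telencephalic sorted cells and at 4.55 and 51.9 CPM in hindbrain sorted cells, above all whole libraries in each case. It was at least 68.7-fold higher in the telencephalic comparison (adjusted p = 0.0377) and higher by 7.94 ± 1.77 in the hindbrain one (adjusted p = 0.00871). Its exons share 133 of 2252 bases with Art3 on the opposite strand, and the libraries carry no strand, so reads there cannot be assigned. Cxcl9 had 20 counts in hindbrain sorted replicate 1 and 0 to 4 in the other libraries. Cxcl11 had 11 and 8 counts in the second sorted replicates of telencephalon and hindbrain, and 0 to 3 elsewhere.

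Of the homeostatic ligands, Cx3cl1 was higher and Cxcl12 lower after sorting. Cx3cl1 stood at 57.2 and 50.9 CPM (telencephalic) and 54.5 and 55.4 CPM (hindbrain) in whole tissue. Sorted cells held 79.9 and 67.7 CPM and 72.6 and 73.4 CPM, above every whole library, a difference of 0.45 ± 0.13 (adjusted p = 0.0231) and 0.41 ± 0.12 (adjusted p = 0.0318). Scaled by library totals these differences were 0.13 and 0.21 and were not called (adjusted p = 0.511 and 0.272). The call was also lost in telencephalic tissue without whole replicate 1 or 2 (adjusted p = 0.074 and 0.187) or sorted replicate 1 (0.21), and in hindbrain tissue without any 1 of its 4 libraries (0.053 to 0.133). Cxcl12, which signals through Cxcr4, fell after sorting in both regions. It stood at 30.9 and 33.9 CPM in telencephalic and 28.3 and 25.4 CPM in hindbrain whole tissue, against 11.6 and 8.43 CPM and 11.0 and 11.5 CPM in sorted cells. The groups did not overlap, and the changes of -1.68 ± 0.18 (adjusted p = 3.6e-05) and -1.26 ± 0.17 (adjusted p = 0.000338) were called under all alternatives run. All 14 endothelial markers fell with it in both regions. So did 11 of 12 mural, 10 of 14 mesenchymal and 11 of 14 macrophage markers in telencephalic tissue. In hindbrain tissue 7, 3 and 1 of these fell, and 0, 1 and 1 rose. The part of any of these cell types in the fall was not tested.

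Cxcl16, a membrane-bound ligand of Cxcr6, stood at 2.69 and 2.62 CPM (telencephalic) and 3.14 and 4.53 CPM (hindbrain) in whole tissue. In sorted cells it reached 3.97 and 5.09 CPM and 8.91 and 9.87 CPM, a difference called in hindbrain tissue (1.29 ± 0.26, adjusted p = 0.00468) and not in telencephalic tissue (0.76 ± 0.29, adjusted p = 0.085). The hindbrain call was lost without whole replicate 1 (1.05, adjusted p = 0.06). It shares 552 of 3021 exonic bases with Zmynd15 on the opposite strand. Ccl25, a thymic and gut ligand of Ccr9, stood at 6.91 and 5.45 CPM (telencephalic) and 5.04 and 6.04 CPM (hindbrain) in whole tissue, and at 5.90 and 6.14 CPM and 3.64 and 5.39 CPM in sorted cells. Ccl27a, a skin ligand of Ccr10, stood at 5.26 and 6.81 CPM and 5.69 and 5.90 CPM in whole tissue, and at 8.66 and 6.57 CPM and 6.33 and 7.12 CPM in sorted cells. For both, the groups overlapped and no comparison was called. Ccl25 shares 204 of 7445 exonic bases with Elavl1 on the opposite strand, and reads there cannot be assigned. Ccl27a has the near-identical copy Ccl27b, which had 0 counts in every library, so the split of reads between them is uncertain.

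The remaining tested ligands were low. Ccl24, an eosinophil attractant through Ccr3, stood at 0.428 and 0.314 CPM (telencephalic) and 0.403 and 0.236 CPM (hindbrain) in whole tissue and at 0.454 and 0.124 CPM in telencephalic sorted cells. Only hindbrain sorted cells were above these, at 2.95 and 0.844 CPM, a difference of 2.53 ± 0.74 from whole tissue (adjusted p = 0.0289). Without hindbrain sorted replicate 1 it was 1.36 (adjusted p = 0.224), without hindbrain whole replicate 1 2.97 (adjusted p = 0.104) and without hindbrain whole replicate 2 2.21 (adjusted p = 0.194). Leaving out telencephalic whole replicate 1 or 2 also ended the call (adjusted p = 0.0567 and 0.0571). Ccl9, a Ccr1 ligand, fell after sorting in hindbrain tissue, from 12.9 and 12.3 CPM to 6.18 and 8.04 CPM (-0.82 ± 0.22, adjusted p = 0.0198). That call was lost without hindbrain whole replicate 1 (adjusted p = 0.109), whole replicate 2 (0.0882) or sorted replicate 1 (0.0621). All 8 tested neutrophil markers fell in the same comparison, as did all 14 endothelial markers. In telencephalic tissue 4 of the 8 neutrophil markers rose after sorting and 0 fell, whereas Ccl9 changed by -0.21 ± 0.25. The part of these markers in the Ccl9 change was not tested. Ccl9 did not pass the test in telencephalic tissue, at 5.69 and 4.82 CPM whole and 5.03 and 4.03 CPM sorted. The next 3 ligands were called in no comparison. Ccl6, the neighbour of Ccl9, stood at 0.489 and 0.105 CPM (telencephalic) and 1.01 and 1.04 CPM (hindbrain) in whole tissue, and at 0.151 and 0.186 CPM and 0.764 and 0.294 CPM in sorted cells. The B-cell attractant Cxcl13 stood at 0.183 and 0 CPM and 0.444 and 0.330 CPM in whole tissue, and at 0.0378 and 0.310 CPM and 1.27 and 0.734 CPM in sorted cells. The Ccr4 ligand Ccl17 stood at 1.28 and 1.05 CPM and 1.17 and 0.661 CPM in whole tissue, and at 0.794 and 0.868 CPM and 0.982 and 0.404 CPM in sorted cells. Ccl22, the other Ccr4 ligand, had counts only in the second sorted replicates, at 0.620 and 0.587 CPM.

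The 18 ligands below the filter were Ccl1, Ccl21a, Ccl21b, Ccl21c, Ccl26, Ccl27b, Ccl28 and Xcl1, which had 0 counts in all 8 libraries, and Ccl8, Ccl11, Ccl19, Ccl20, Cxcl5, Cxcl9, Cxcl11, Cxcl14, Cxcl15 and Cxcl17. The highest count among the latter 10 was 12 in a whole library and 20 in a sorted library. A count of 0 allows up to 0.109 to 0.314 CPM, depending on the library (3 counts). Ccl21a, Ccl21b and Ccl21c are near-identical copies, so the counts of each are uncertain.

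Per kilobase of exon (GENCODE vM21 lengths), the order of the ligands changed with sorting. Cx3cl1 led in telencephalic whole tissue at 13.8 ± 1.1 CPM per kb (SD, n = 2), followed by Cxcl12 at 3.96 ± 0.25 and Ccl12 at 3.80 ± 2.6, which do not differ beyond their spread. In hindbrain whole tissue Cx3cl1 at 14.0 ± 0.16 CPM per kb was followed by Ccl9 at 4.13 ± 0.14 and Cxcl12 at 3.29 ± 0.25. In telencephalic sorted cells Cx3cl1 had the highest mean at 18.8 ± 2.2 CPM per kb, with Ccl4 at 9.20 ± 12 and Ccl3 at 7.68 ± 7.9, whose replicates were far apart. In replicate 2 alone, Ccl4 (17.5 CPM per kb) and Cx3cl1 (17.2) were level. In hindbrain sorted cells Ccl3 had the highest mean level, 42.8 ± 22 CPM per kb, with Cxcl2 at 26.3 ± 17, Ccl4 at 26.0 ± 31, Cxcl1 at 19.2 ± 15 and Cx3cl1 at 18.6 ± 0.14. The spreads of the first 4 overlapped, but a spread between libraries does not compare genes within a library. Within each replicate Ccl3 was the highest of these ligands, at 27.4 and 58.1 CPM per kb. Cxcl2 stood at 14.2 and 38.5, Ccl4 at 3.91 and 48.1, and Cxcl1 at 8.38 and 30.0.

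How far a single sorted replicate carried these values was then examined. The 7 inflammatory ligands summed to 12.7 CPM in telencephalic sorted replicate 1 and 103.6 CPM in replicate 2, and to 77.8 and 311.9 CPM in the hindbrain replicates. Replicate 2 thus held 89% of the telencephalic and 80% of the hindbrain signal of these ligands, 8.13 and 4.01 times as much as replicate 1. In whole tissue the 7 summed to 0.673 and 0.105 CPM (telencephalic) and 2.14 and 2.31 CPM (hindbrain). For these 7, each sorted replicate 1 lay above every whole library, 12.7 and 77.8 CPM against at most 2.31. The 7 were chosen as called higher after sorting in these same libraries, so this order is no separate evidence of a rise.

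The spread between replicates was set beside that of all genes tested. The median absolute log2 ratio between replicates (CPM + 0.5) was 0.61 for the 21 ligands and 0.18 for all 15698 genes in telencephalic sorted cells, and 1.07 against 0.25 in hindbrain sorted cells. In whole tissue the ligand and all-gene medians were 0.17 and 0.16 (telencephalic) and 0.13 and 0.17 (hindbrain). There the ligand medians depended on the pseudocount, since many ligands had few or no reads. With a pseudocount of 0.1 CPM they were 0.270 against 0.174 (telencephalic) and 0.295 against 0.187 (hindbrain). In sorted cells that pseudocount gave 1.57 against 0.194 and 1.13 against 0.270. More than 4-fold higher in replicate 2 were 7 of 21 ligands and 21 of 15698 genes in telencephalic sorted cells, and 5 ligands and 37 genes in hindbrain sorted cells. In both regions together 12 genes passed this limit, and 5 of them were ligands: Cxcl10, Ccl4, Ccl7, Ccl2 and Ccl5. The other 7 were the interferon-response genes Oasl1, Gbp5 and Ifit1, the cytokine genes Tnf, Ifnb1 and Il1a, and Clec4e, a macrophage lectin. Both sorted replicates 2 come from the same brains, so the regions are not independent observations of this difference. Ccl5, Ccl22 and Cxcl3 had 10 or more counts only in the second sorted replicates and passed the low-count filter through these alone. Their excess in replicate 2 is therefore built into their place among the 21. It enters the ligand medians and, for Ccl5, the 4-fold counts.

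By CPM ratio, Cxcl10 was 24.8 times as high in replicate 2 as in replicate 1 of telencephalic sorted cells and 11.4 times in hindbrain sorted cells. Ccl4 gave 19.1 and 12.3, Ccl7 18.4 and 14.3, and Ccl2 12.9 and 7.85. The ratios were smaller for Ccl3 (6.40 and 2.12), Cxcl2 (6.23 and 2.71) and Cxcl1 (4.22 and 3.58). Ccl5 was 79.7 times as high in hindbrain replicate 2, with 0 counts in telencephalic replicate 1. Ccl24 in hindbrain sorted cells went the other way, with replicate 2 at 0.286 times replicate 1. In telencephalic sorted cells its ratio of 0.273 rested on 2 against 12 counts (95% counting interval 0.0297 to 1.23). The ratios of Cx3cl1, Cxcl12 and Cxcl16 were nearer to 1: replicate 2 stood at 0.847 and 1.01 times replicate 1 for Cx3cl1, 0.729 and 1.04 for Cxcl12 and 1.28 and 1.11 for Cxcl16. The telencephalic log2 ratio of Cxcl12 (-0.43) was still larger in size than the median of all genes.

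**Figure D2:**
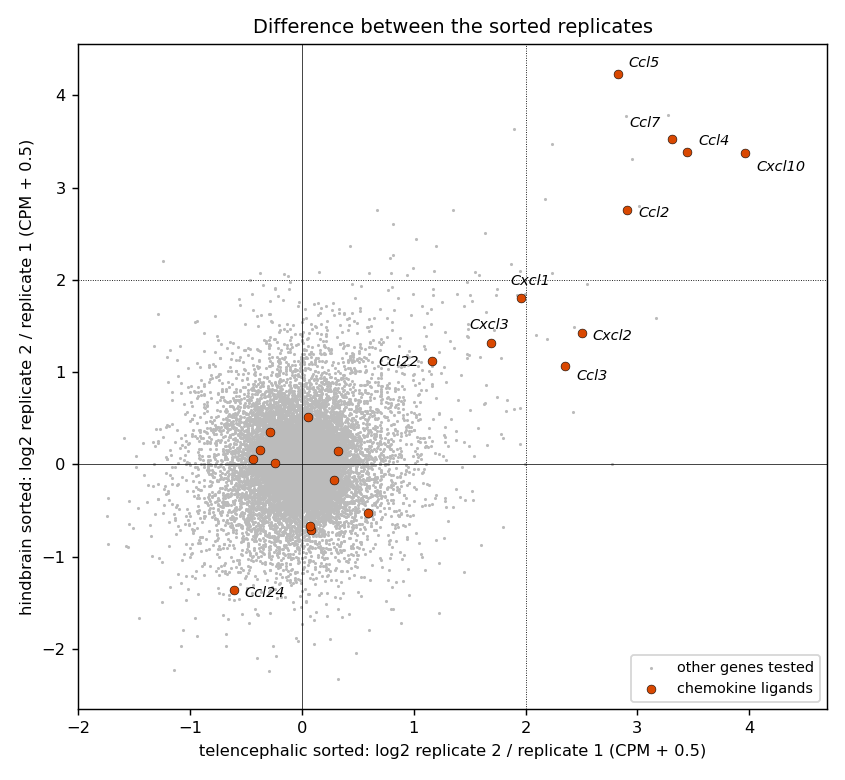
Each point is a tested gene, placed by the log2 ratio of replicate 2 to replicate 1 (CPM + 0.5) in telencephalic sorted cells on the horizontal axis and in hindbrain sorted cells on the vertical axis. Dotted lines mark 4-fold, and the 21 ligands are in orange. Cxcl10, Ccl4, Ccl7, Ccl2 and Ccl5 are among the 12 genes above both lines.

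Calls of sorted against whole tissue depended on these libraries to different degrees. Without telencephalic sorted replicate 2, telencephalic Cxcl1 and Cxcl2 kept their calls, whereas Ccl2 (adjusted p = 0.185), Ccl3 (0.0875), Ccl4 (0.376), Ccl7 (0.399) and Cxcl10 (0.298) lost theirs, which left 5 called ligands in place of 10. Leaving out telencephalic whole replicate 1 left 4 (Cxcl1, Cxcl2, Cxcl12 and Ccl12) and leaving out replicate 2 left 3 (the same without Ccl12). Without hindbrain sorted replicate 2, Ccl2 (adjusted p = 0.0514), Ccl5 (0.556) and Ccl7 (0.127) were among those lost, and 9 ligands of 13 were called. Without hindbrain whole replicate 1 there were 5 (Cxcl1, Cxcl2, Cxcl12, Ccl3 and Ccl4), and without replicate 2 there were 6 (Cxcl1, Cxcl2, Cxcl10, Cxcl12, Cxcl16 and Ccl3). Sizes moved too. Without hindbrain sorted replicate 2 the hindbrain differences were 3.22 for Ccl2, 4.04 for Ccl3, 3.86 for Ccl4, 2.61 for Ccl7 and 5.31 for Cxcl10. From sorted replicate 1 alone, the hindbrain ratio was 241 for Cxcl1 (95% counting interval 81.9 to 1170), 1350 for Cxcl2 (242 to 53400) and 6.69 for Ccl5 (0.662 to 330). These are all below the values from both replicates, and the interval of Ccl5 includes equality. In telencephalic tissue Ccl3 differed by 2.05 without sorted replicate 2. From sorted replicate 1 alone, Cxcl1 was at least 38.8-fold, Cxcl2 at least 35.6-fold, Cxcl10 at least 6.85-fold and Ccl2 at least 5.22-fold higher than in telencephalic whole tissue. The ratios were 15.7 for Ccl4 (2.43 to 657) and 13.7 for Ccl7 (2.09 to 580). No called difference changed its sign in any of these fits.

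The second comparison set hindbrain against telencephalic choroid plexus. In whole tissue 1 of 21 ligands was called, against 5.79% of all genes in either direction (3.34% higher and 2.45% lower). Ccl9 stood at 5.69 and 4.82 CPM in telencephalic and 12.9 and 12.3 CPM in hindbrain tissue, a difference of 1.25 ± 0.24 (adjusted p = 0.00688). The call was lost without telencephalic replicate 1 (adjusted p = 0.0668), telencephalic replicate 2 (0.0994) or hindbrain replicate 1 (0.0519), with the difference between 1.14 and 1.38. All 8 tested neutrophil markers were higher in the same hindbrain libraries, where the 9 in the table summed to 74.5 and 55.9 CPM against 2.94 and 2.83 CPM in telencephalic tissue, and 1 of 14 macrophage markers (Csf1r) was higher. Between sorted regions 0 of the 8 neutrophil markers were called, and Ccl9 differed by 0.64 ± 0.23 (adjusted p = 0.0858). The part of these markers in the whole-tissue Ccl9 difference was not tested. The median log2 difference was 0.52 for the 21 ligands (0.27 over 16 of them, with Ccl2 at its bound and genes without a bound left out) and 0.01 for all genes. Ccl2 had 13 counts in hindbrain and 0 in telencephalic whole tissue, at least 2.44-fold higher, and was not called (adjusted p = 0.636).

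In sorted cells 4 of 21 ligands were higher in the hindbrain, against 9.06% of all genes called higher and 6.12% called lower (15.2% in either direction). They were Ccl3 (2.55 ± 0.59, adjusted p = 0.0119), Ccl12 (2.47 ± 0.61, adjusted p = 0.0172), Ccl24 (2.58 ± 0.75, adjusted p = 0.0364) and Cxcl16 (1.06 ± 0.26, adjusted p = 0.0172). The median log2 difference was 1.55 over the ligands and -0.00 over all genes. Library values of these 4 are given above, and in each the hindbrain pair lay above the telencephalic pair. Ccl24 lost its call in 9 of the alternatives. Its difference was 1.41 without hindbrain sorted replicate 1 (adjusted p = 0.288), 2.05 without telencephalic sorted replicate 2 (0.197) and 3.87 without telencephalic sorted replicate 1 (0.0814). Ccl3 lost its call with DESeq2 (adjusted p = 0.107), and its difference ran from 1.69 without telencephalic sorted replicate 1 to 4.36 without telencephalic sorted replicate 2. Ccl12 and Cxcl16 lost theirs without telencephalic sorted replicate 1 (adjusted p = 0.158 and 0.151) or without replicate 1 of both sorted groups (0.155 and 0.0831).

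Because both regions of a replicate came from the same brains, the difference within each brain pair was also read. Within sorted replicates 1 and 2, the hindbrain library held 3.49 and 2.96 times the CPM of the telencephalic library for Cxcl1. The same ratios were 7.12 and 3.10 for Cxcl2, 5.73 and 2.63 for Cxcl10, and 4.45 and 2.70 for Ccl2. Ccl7 gave 3.57 and 2.77, Ccl4 4.27 and 2.75, and Ccl3 13.2 and 4.38. Of 21 ligands, 15 were higher and 1 lower in the hindbrain in both sorted pairs, against 32% and 32.2% of all genes. In both whole pairs 10 were higher and 4 lower, against 35.5% and 34.5% of all genes, and 3 of the 10 (Ccl4, Cxcl1 and Cxcl10) rested on 3 or fewer counts against 0 in at least 1 pair. Adding the brain as a block to the fit raised the calls in sorted cells from 4 to 11 ligands, all higher in the hindbrain, while 18.7% of all genes were called. The 7 added ligands were Cxcl1 (1.67 ± 0.18, adjusted p = 5.11e-05), Cxcl2 (2.17 ± 0.24, adjusted p = 6.07e-05), Cxcl10 (1.75 ± 0.26), Ccl2 (1.68 ± 0.30), Ccl4 (1.66 ± 0.26), Ccl5 (2.04 ± 0.50) and Ccl7 (1.58 ± 0.28), with adjusted p up to 0.0131. These fits share the same 4 sorted libraries, so the 11 ligands are not separate observations.

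**Figure D3:**
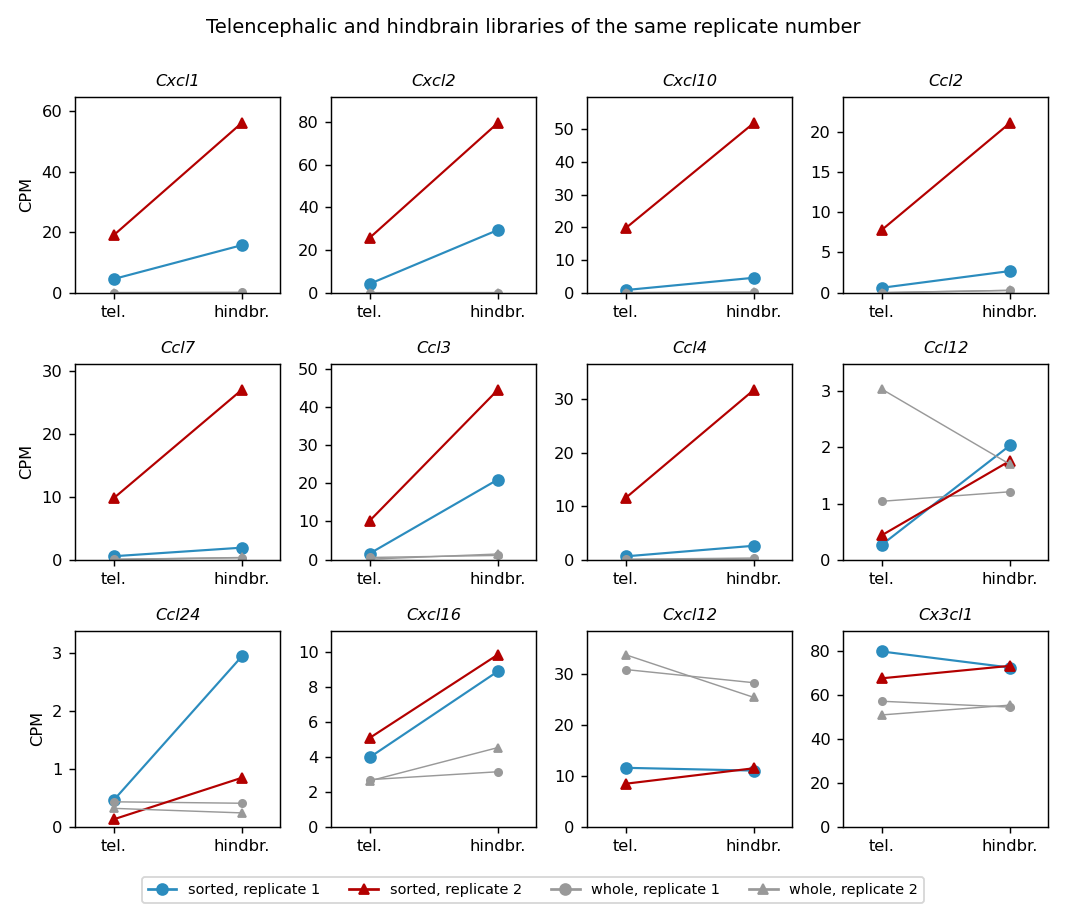
CPM of 12 ligands, 1 panel each with its own linear axis from 0, in the telencephalic (tel.) and hindbrain (hindbr.) library of each replicate. Lines join libraries of the same brains, in blue and red for sorted replicates 1 and 2 and in grey for whole tissue. In sorted cells the lines of Cxcl1, Cxcl2, Cxcl10, Ccl2, Ccl7, Ccl3 and Ccl4 slope upward in both replicates, from different starting levels, while those of Cx3cl1 and Cxcl12 cross.

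Markers of several cell types differed between the sorted regions. In the hindbrain 11 of 14 mesenchymal, 9 of 12 mural and 5 of 14 endothelial markers were higher, and 1, 0 and 1 were lower. Of the macrophage markers, 13 of 14 were higher and 0 lower than in telencephalic sorted cells. Csf1r, the receptor for macrophage growth factor, stood at 11.8 and 16.7 against 47.4 and 42.3 CPM. The macrophage marker sum in replicate 2 was 1.82 times that in replicate 1 in telencephalic and 0.879 times in hindbrain sorted cells. Cd14, a bacterial pattern receptor of this list, was higher in both replicates 2, at 0.378 and 7.38 CPM in telencephalic and 4.04 and 13.1 CPM in hindbrain sorted cells. Immediate early genes, induced within minutes of a stimulus, rose after sorting in 10 of 11 cases (telencephalic) and 11 of 11 (hindbrain), and 10 of 11 were higher in hindbrain than in telencephalic sorted cells. Their sum was 70.8 and 58.1 CPM in telencephalic and 74.7 and 75.2 CPM in hindbrain whole tissue, against 840.8 and 890.5 CPM and 1457 and 1583 CPM in sorted cells, with replicate 2 at 1.06 and 1.09 times replicate 1. Fos, an AP-1 subunit, went from 0.856 and 0.839 to 166 and 201 CPM in telencephalic tissue and from 1.69 and 0.850 to 272 and 237 CPM in hindbrain tissue. Of 24 tested NF-kB feedback and cytokine genes, 10 rose and 2 fell after sorting in telencephalic tissue, and 17 rose and 1 fell in hindbrain tissue. Zfp36, which destabilises cytokine mRNA, went from 22.6 and 16.0 to 53.3 and 71.5 CPM (telencephalic) and from 24.5 and 20.5 to 186 and 231 CPM (hindbrain). Nfkbia, the inhibitor that NF-kB itself induces, went from 10.3 and 8.70 to 25.4 and 24.4 CPM and from 7.34 and 8.31 to 27.9 and 36.9 CPM. The part of these genes and of the markers of any cell type in the ligand values was not tested.

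Interferon-response genes, too, were higher in sorted replicate 2. The 12 genes of this list summed to 46.7 and 96.6 CPM in telencephalic and 77.8 and 199.2 CPM in hindbrain sorted cells, so that replicate 2 held 2.07 and 2.56 times replicate 1. In whole tissue the sum was 66.8 and 60.9 CPM and 83.8 and 78.7 CPM. Between sorted and whole tissue, 0 of 12 were higher and 1 (Oasl2) lower in the telencephalon, and 2 (Irf1 and Mx1) were higher in the hindbrain. Ifnb1, the gene for interferon beta, had 0 counts in all whole libraries and was at 1.86 and 5.43 CPM in sorted replicates 2 of telencephalon and hindbrain. Tnf stood at 0.151 and 4.78 CPM in telencephalic and 3.20 and 25.4 CPM in hindbrain sorted cells.

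**Figure D4:**
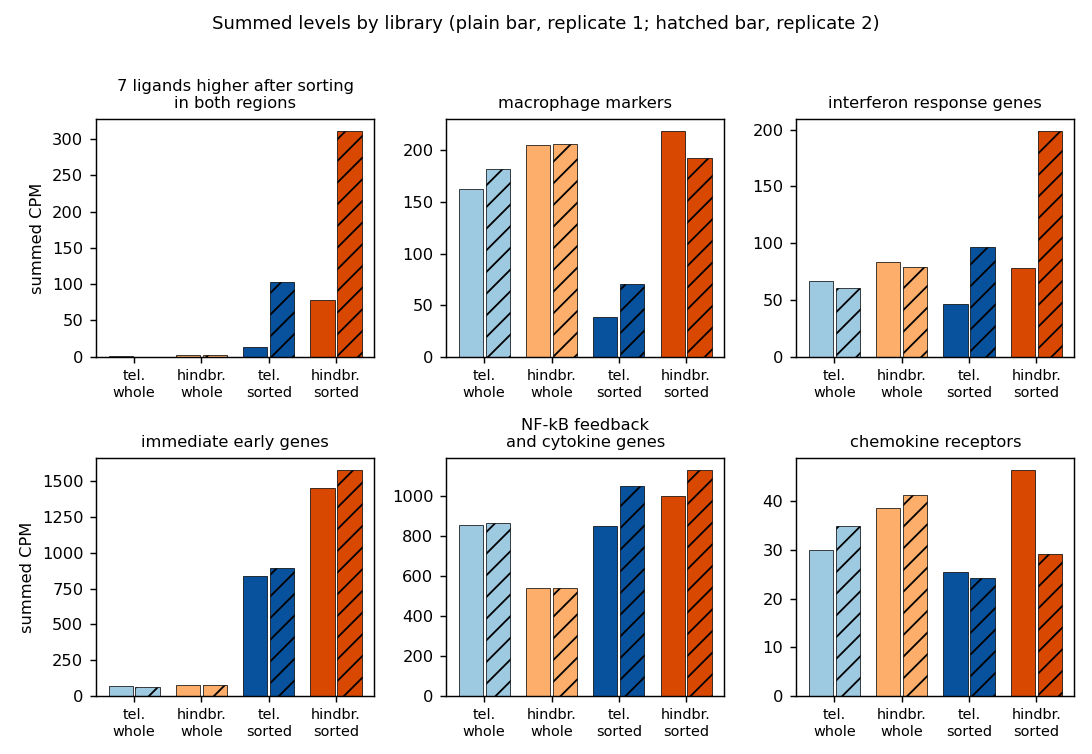
Summed CPM per library for the 7 ligands higher after sorting in both regions (Cx3cl1 left out) and for 5 companion lists, each panel with its own axis from 0. Plain bars are replicate 1 and hatched bars replicate 2. The 7 ligands and the interferon response genes are higher in replicate 2 of both sorted groups (103.6 against 12.7 and 311.9 against 77.8 CPM for the ligands), whereas the immediate early genes are alike in both replicates.

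The difference between the region effect in sorted cells and that in whole tissue was tested as an interaction. It called 0 of 21 ligands, against 1.34% of all genes, and DESeq2 called 0 as well. At an unadjusted p under 0.05 there were 2 ligands, Ccl12 with a difference of 2.91 ± 0.83 (adjusted p = 0.159) and Ccl24 with 2.82 ± 1.19 (adjusted p = 0.475). For the inflammatory ligands the errors were wide, such as -1.94 ± 4.99 for Cxcl1 and -0.32 ± 1.76 for Cxcl2. With the brain as a block they were narrower, at -1.97 ± 1.73 (adjusted p = 0.773) and -0.22 ± 0.55 (adjusted p = 0.935), and again 0 ligands were called.

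Receptors for these ligands were also measured. Of 18 typical chemokine receptors examined 12 were tested. After sorting, Ccr1, Ccr2, Cxcr4 and Cx3cr1 fell in telencephalic tissue and Cxcr2 rose, while in hindbrain tissue Ccr1 and Ccr2 fell and Ccr3 and Ccr10 rose. Ccr2, the receptor of Ccl2 and Ccl7, stood at 1.22 and 1.05 CPM (telencephalic) and 3.67 and 3.45 CPM (hindbrain) in whole tissue and at no more than 0.124 CPM in sorted libraries. Cxcr2, the receptor of Cxcl1 and Cxcl2, was present throughout, at 4.89 to 6.61 CPM in whole and 7.63 to 12.0 CPM in sorted libraries (telencephalic adjusted p = 0.0304, hindbrain 0.234). Cxcr3, the receptor of Cxcl10, and Ccr7 had too few reads to be tested, and Cxcr1 had 0 counts.

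The macrophage receptor Cx3cr1 stood at 10.3 to 13.7 CPM in whole tissue, at 2.34 and 2.42 CPM in telencephalic sorted cells and at 15.5 and 5.21 CPM in hindbrain sorted cells. Cxcr4 showed 3.30 and 3.56 CPM (telencephalic) and 5.60 and 6.28 CPM (hindbrain) whole, against 1.13 and 1.12 CPM and 5.97 and 6.72 CPM sorted. Both were higher in hindbrain than in telencephalic sorted cells (adjusted p = 0.0036 for Cx3cr1 and 8.92e-05 for Cxcr4), as were Ccr1 and Ccr3. The other tested receptors, Ccr4, Ccr9, Cxcr5, Cxcr6 and Xcr1, were called in no comparison and ran from 0.189 to 5.45 CPM.

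Among 5 atypical receptors, a class described as binding chemokines without steering cells, Ccrl2, whose own binding was not examined, moved with the inflammatory ligands. It stood at 0.245 and 0.314 CPM (telencephalic) and 0.605 and 0.802 CPM (hindbrain) in whole tissue, 2.95 and 11.3 CPM in telencephalic and 15.8 and 35.8 CPM in hindbrain sorted cells. It was called in both sorted against whole comparisons and between the sorted regions (adjusted p = 0.0207), and its second sorted replicates were the higher ones. Cxcr7 (Ackr3), which scavenges Cxcl12, ran from 25.8 to 51.8 CPM over all libraries. It was lower in hindbrain than in telencephalic sorted cells, at 33.3 and 25.8 against 51.8 and 40.4 CPM (adjusted p = 0.0163). Ccbp2, a scavenger of inflammatory CC ligands, fell after sorting in both regions, from 3.18 and 4.51 to 0.492 and 0.620 CPM in the telencephalon and from 1.37 and 2.41 to 0.255 and 0 CPM in the hindbrain.

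**Figure D5:**
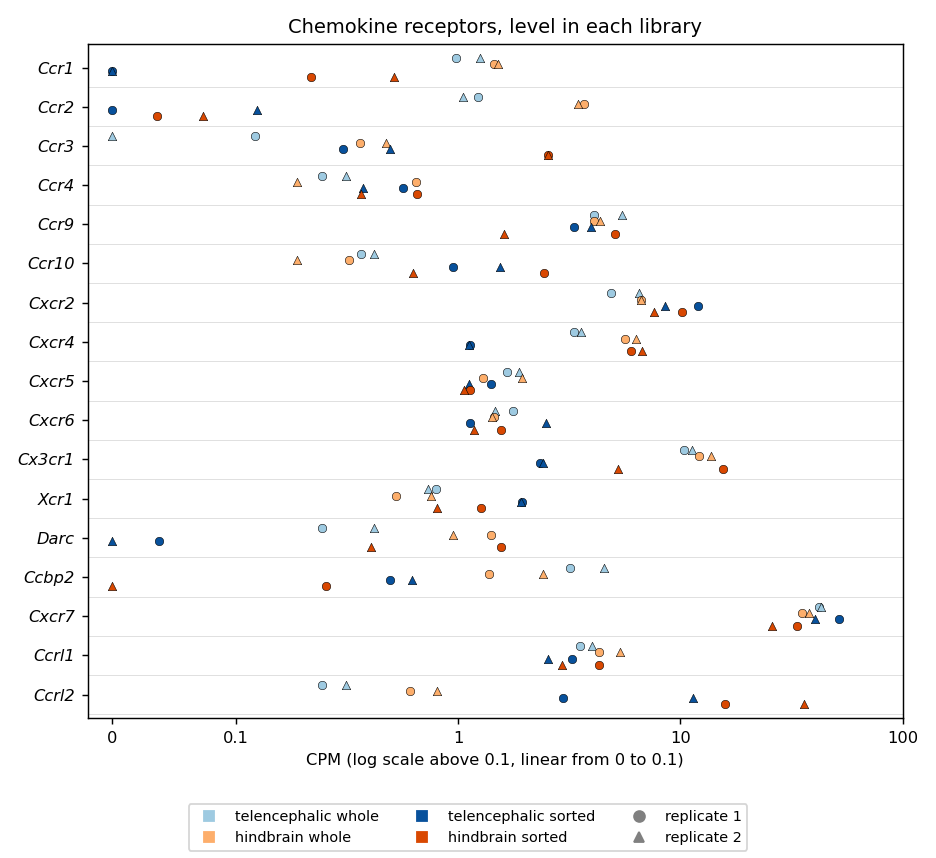
Level of 12 tested chemokine receptors and 5 atypical receptors (Darc, Ccbp2, Cxcr7, Ccrl1 and Ccrl2) in each library, in CPM on an axis that is logarithmic above 0.1. Colours and symbols are those of the ligand plot. Ccrl2 runs from 0.245 CPM in whole tissue to 35.8 CPM in hindbrain sorted replicate 2, and Cxcr7 lies between 25.8 and 51.8 CPM in all libraries.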

How the data were processed

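The authors deposited raw read counts for 23284 gene symbols in 8 libraries. Per the labels' protocols, RNA from RNeasy Micro columns was amplified (NuGEN Ovation V2) before TruSeq v2 library preparation and paired-end sequencing, with no strand mark. The submitters' processing notes list the build mm9 with HTSeq, Bowtie2 2.0.5, TopHat2 2.0.4, DESeq 1 and CASAVA 1.8.2, without an annotation or HTSeq settings. Because no mm9 genome was used, coordinates are given for the RefSeq promoters alone, on GRCm38.p6.

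Counts were fitted with edgeR 4.0.16 (limma 3.58.1, R 4.3.3). Low genes were removed with filterByExpr (count 10, total 15, by group), TMM factors set the scale, and 1 model with 4 group means covered all 8 libraries. Quasi-likelihood F tests gave 5 contrasts, with Benjamini-Hochberg adjustment over all 15698 genes and a threshold of 0.05. The spread is estimated from 2 replicates per group, so p-values measure the spread between these samples. CPM values were computed here from the counts and TMM-scaled library sizes. Ratios against 1 to 3 counts carry 95% counting intervals. Where a group had 0 counts, 3 counts over the group served as floor. Reads carried no molecular identifiers, so intervals and floors cover counting error only. The fit was also run on simulated counts, and the outcome is not given here.

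The design text states that both regions came from the same brains. Same-numbered libraries deviated together (r = 0.259 in whole and 0.157 in sorted libraries, over 15698 genes), and the fit with the brain as a block is given beside the results it changes. Alternatives were that block, DESeq2 1.42.0, library totals as the scale, no low-count filter, only the 4 libraries of a comparison, other pseudocounts than 0.5 CPM for replicate ratios, and leaving out each library. Leaving out a sorted replicate in both regions was added after seeing the data. The ligands and companion lists were chosen with earlier results of these data known. Named genes were all tested ligands with every library's value, the tested receptors, and up to 4 called members per companion list and comparison by adjusted p. Tnf and Ifnb1, and the other genes listed for their replicate ratio, were chosen after their values were seen. Results on a further receptor gene are not reported here.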

Additional observations from a re-analysis of the deposited data

How the results depend on the processing

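Of 28 called ligand differences, recomputed 392 times in all, 319 kept their call, 73 kept the direction and lost it, and 0 reversed. The 392 leave out cases in which the ligand fell below the low-count filter and had no test. These were telencephalic Ccl2, Ccl4 and Ccl7 and hindbrain Ccl5 with only the 4 libraries of the comparison. Hindbrain Ccl5 without replicate 2 of both sorted groups was another. Between sorted regions 4 called ligands became 11 with the replicate block, which pairs regions of the same brains, 8 with library totals as the scale and 7 with no low-count filter. Leaving out replicate 1 or replicate 2 of both sorted groups changed which ligands were called, and of the 4 only Ccl3 was kept in both. In whole tissue 1 call became 3 without replicate 1 and 2 without replicate 2 of both sorted groups. The interaction gained 1 call (Ccl12) with no low-count filter. Leaving out 1 library at a time gave 0 to 1 calls between whole regions, 1 to 9 between sorted regions (1 without telencephalic sorted replicate 1, 9 without telencephalic sorted replicate 2, 7 without hindbrain sorted replicate 1), 3 to 10 for sorted against whole telencephalic tissue and 5 to 14 for hindbrain. A lone remaining library of a group is assumed to vary like the other groups. Without 1 replicate of both sorted groups, the spread comes from whole tissue alone, where replicates differed less than in sorted cells, so those calls are no check on the spread between sorted replicates. The cause of these shifts was not tested, beyond the smaller number of libraries. The block left the other region comparison at 1 and the interaction at 0 calls. Whole-tissue depth limits the inflammatory ligands, 4 of which had 0 counts in both telencephalic libraries.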

Other observations

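Platelet chemokine genes outside the naming rule, Pf4 and Ppbp, were also in the table. Pf4, which encodes platelet factor 4 and is also read in tissue macrophages, stood at 11.9 and 13.4 CPM (telencephalic) and 18.1 and 14.965 CPM (hindbrain) in whole tissue, 2.91 and 6.20 CPM in telencephalic and 12.2 and 14.3 CPM in hindbrain sorted cells. It fell after sorting in the telencephalon (adjusted p = 0.00319) and was higher in hindbrain than in telencephalic sorted cells (adjusted p = 0.00246). Ppbp, the precursor of a platelet neutrophil attractant, fell after sorting in both regions (adjusted p = 0.00313 and 0.000291), from 1.53 and 1.47 to 0.113 and 0 CPM and from 6.85 and 4.48 to 0.364 and 0.0734 CPM. The proteases Adam10 and Adam17, which shed Cx3cl1 and Cxcl16 from the membrane, were called in no comparison. Dpp4, which trims several chemokines, was higher in hindbrain than in telencephalic sorted cells (adjusted p = 0.017).

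Some tested ligands are neighbours in the genome. By the RefSeq annotation of GRCm38.p6, Ccl2, Ccl7 and Ccl12 are in a group of 6 neighbouring ligand genes on chromosome 11, Ccl3, Ccl4, Ccl5, Ccl6 and Ccl9 in a group of 5 on the same chromosome, and Cxcl1, Cxcl2 and Cxcl3 in a group of 5 on chromosome 5. Neighbours did not all move alike: in telencephalic tissue Ccl2 and Ccl7 were higher and Ccl12 lower after sorting, and Ccl3 and Ccl4 were higher while Ccl6 and Ccl9 were not called.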
